A study of Mus musculus with 20 samples.

Results

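The clustered protocadherins are neuronal cell surface proteins of the cadherin superfamily, encoded by the neighboring alpha (Pcdha), beta (Pcdhb) and gamma (Pcdhg) gene clusters. In the alpha and gamma clusters a single variable exon, which carries the extracellular domains, is spliced to constant exons shared by the whole cluster, whereas each Pcdhb gene is a separate gene with no constant exons. Individual neurons choose a few of the variable promoters, a choice that depends on DNA methylation, CTCF and cohesin, and matching sets of the proteins recognize each other between membranes. The family is known for self-avoidance of neurites, neuronal survival and synapse formation.

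Members were the listed genes whose Ensembl identifier had a symbol of the form Pcdha, Pcdhac, Pcdhb, Pcdhga, Pcdhgb or Pcdhgc followed by a number. They came to 24 of the 39179 genes listed for each mouse. All 22 Pcdhb genes, Pcdhb1 to Pcdhb22, were among them. The alpha and the gamma cluster were each represented by 1 identifier, ENSMUSG00000007440, which the GENCODE M21 annotation names Pcdha11, and ENSMUSG00000023036, which it names Pcdhgc4. M21 has 58 identifiers that meet the rule, and the 34 that the tables did not list (13 alpha and 21 gamma) all carry numbers above the highest one in the tables. Which exons the counts of these 2 identifiers covered is not given in the sources used here, so they are called the Pcdha row and the Pcdhg row and are not read as single genes. In M21, 53.4% of the exonic bases of the first identifier and 37.9% of those of the second are also exons of other members, and how reads from such stretches were counted is not given in the sources used here. Over whole libraries, 1.39% to 1.66% of the tallied reads were recorded as ambiguous.

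The members lie on chromosome 18. The Pcdhb genes run on the plus strand from 37264938 to 37524479 of GRCm38, with the alpha cluster on one side and the gamma cluster on the other. Their exonic lengths in M21 ranged from 2588 to 8695 bases. Of the 22 Pcdhb genes, 9 held no stretch of 100 bases, the read length, that also occurred in a transcript of another gene. Pcdhb21 and Pcdhb22 overlap by 455 bases in M21, and how reads from that stretch were counted is likewise not given.

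RNA was sequenced from the whole bilateral striatum, dorsal and ventral, of 20 adult male mice about 6.5 months of age. The mice were from generation 17 of a breeding experiment in which the High-Active line was selected for distance traveled in the home cage and the Control line was bred without selection, both from an intercross of 8 inbred strains. Mice of each line received 1 intraperitoneal injection of 0.25 mg/kg d-amphetamine sulfate or of saline and were killed 2 hours later, giving 4 groups of 5 mice. There was 1 line of each kind, so selection and drift cannot be told apart. By the labels, 8 breeding pairs gave the 10 Control mice and 5 gave the 10 High-Active mice, and a full sibling in the experiment was recorded for 4 Control and 9 High-Active mice. The study's methods, by contrast, describe every mouse as coming from its own family, so each comparison of siblings here rests on the sire and dam of the labels.

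Depth, as reads assigned to genes, was 32388971 to 53710713 per mouse. Levels are given in CPM, the counts of a gene per 1000000 counts of the library after TMM scaling, and lines and treatments were compared with edgeR's quasi-likelihood test over all 14792 genes above 1 CPM in at least 3 mice, with Benjamini-Hochberg adjustment over all of them and a threshold of 0.1. All 10 markers of striatal projection neurons, such as Drd1, Drd2 and Ppp1r1b, were detected, with a summed level of 4397 to 7244 CPM over the 20 mice. Markers of cortical excitatory neurons varied more. Their summed level over 12 genes was 531.7 to 1233 CPM in Control saline, 955.4 to 1312 in Control amphetamine, 336.0 to 590.7 in High-Active saline and 428.2 to 1412 in High-Active amphetamine mice. None of the 12 was at 0 in every mouse. At the threshold, 5 of them (Lamp5, Neurod2, Slc17a7, Tbr1 and Nptx1) were lower in High-Active mice, beside 6.9% of all genes. In such bulk tissue, fewer cells of a type and less RNA per cell cannot be told apart. The pseudogene Gm6180, which had 390 to 801 reads in the other 9 High-Active mice and at most 15 in Control mice, had 13 in the High-Active amphetamine mouse 192. Results are therefore also given without the library labelled 192.

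Reads from all clusters were found in every mouse. The Pcdhg row averaged 636.9 ± 48.6 CPM (SD, n = 20 mice), the Pcdha row 152.3 ± 14.1 and the sum of the 22 Pcdhb genes 157.3 ± 14.0, which made 67.3%, 16.1% and 16.6% of the members' reads. These shares are of reads and were not divided by length. The 2 rows and the Pcdhb sum varied little between mice. The highest mouse was 1.39 times the lowest for the Pcdha row and 1.29 times for the Pcdhg row. The Pcdhb sum ranged from 133.7 to 185.6 CPM.

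High-Active mice had lower mean levels of the Pcdha and Pcdhg rows than Control mice, and nearly the same mean level of the Pcdhb sum. In the Pcdha row, Control saline mice had 145, 148, 148, 161 and 163 CPM, and Control amphetamine mice 153, 163, 164, 167 and 178. High-Active saline mice had 128, 132, 136, 138 and 154 CPM, and High-Active amphetamine mice 134, 146, 153, 163 and 172. The lines overlapped, although 5 of the 10 High-Active mice were below every Control mouse. In the Pcdhg row, Control saline mice had 584, 626, 633, 667 and 703 CPM, and Control amphetamine mice 642, 683, 683, 712 and 718. High-Active saline mice had 557, 576, 586, 635 and 668 CPM, and High-Active amphetamine mice 569, 604, 614, 627 and 650. All 10 High-Active mice were below the Control median, and 5 Control mice were above every High-Active mouse. The ratio of the High-Active mean to the Control mean was 0.916 for the Pcdha row, 0.915 for the Pcdhg row and 0.999 for the Pcdhb sum. Without mouse 192, the ratios were 0.897, 0.916 and 0.979.

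**Figure D1:**
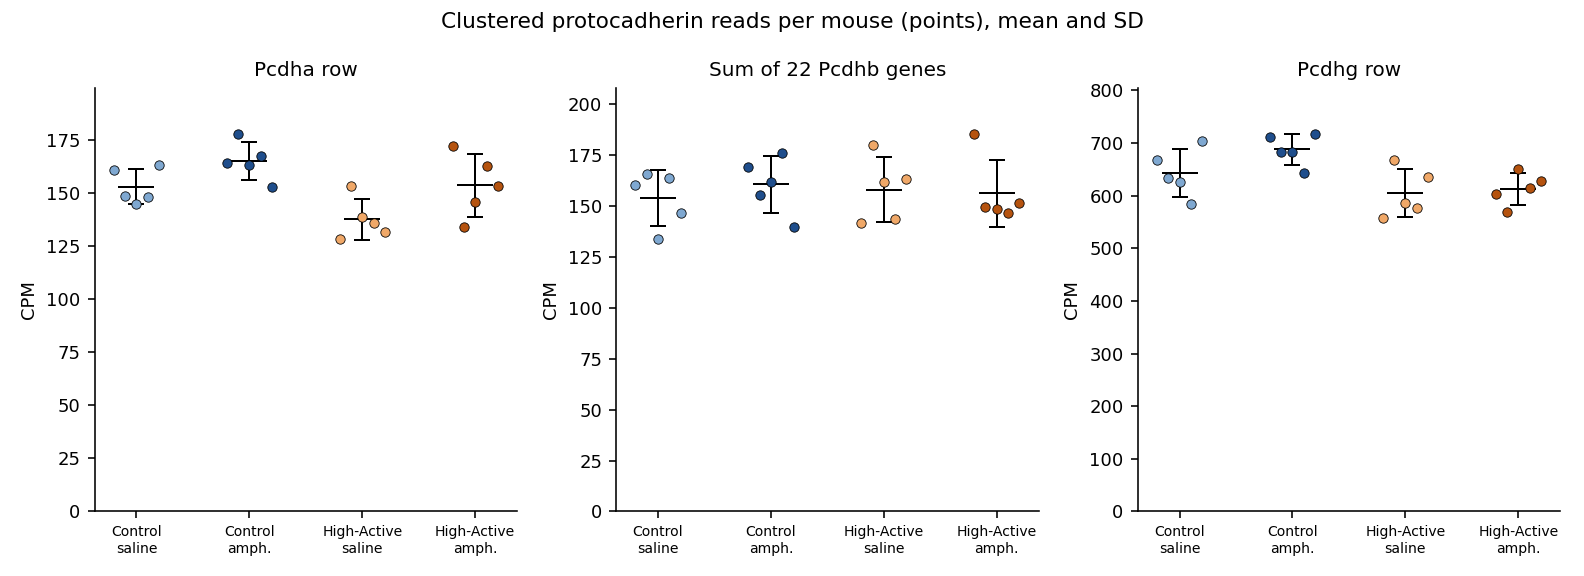
CPM of the Pcdha row, the sum of the 22 Pcdhb genes and the Pcdhg row in each mouse (points), by group, with the group mean and SD (n = 5 mice). High-Active mice averaged 0.916 and 0.915 times the Control level in the Pcdha and Pcdhg rows and 0.999 times in the Pcdhb sum, and mice of the lines overlapped in every panel.

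Within the beta cluster, levels were compared per kb of exon. Pcdhb20 was the highest, at 3.80 ± 0.68 CPM per kb (SD, n = 20 mice), followed by Pcdhb17 at 3.52 ± 0.49, Pcdhb7 at 3.47 ± 0.60 and Pcdhb9 at 3.39 ± 0.89. These 4 did not differ from their neighbors in the order beyond their spread. Pcdhb12 came next at 2.61 ± 0.43 CPM per kb, and the levels then declined in small steps to Pcdhb4 at 0.814 ± 0.19 and Pcdhb2 at 0.688 ± 0.30. Pcdhb1, at the alpha side of the cluster, had 0.126 ± 0.07 CPM per kb and was the only gene in the order set apart from its neighbor by more than 1 SD of each. Its 2 to 36 reads per mouse left it under 1 CPM in all 20 mice, and it was the only member that was not tested. The other Pcdhb genes had 24 to 908 reads in a mouse. The 4 highest genes, Pcdhb7, Pcdhb9, Pcdhb17 and Pcdhb20, each had a lower gene on either side, of which Pcdhb18 was the highest at 2.085 ± 0.29 CPM per kb. The 5 genes that took most reads, Pcdhb17, Pcdhb20, Pcdhb7, Pcdhb18 and Pcdhb19, held 39.4% ± 2.1 of the Pcdhb reads in Control and 40.9% ± 1.3 in High-Active mice (SD, n = 10 each).

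**Figure D2:**
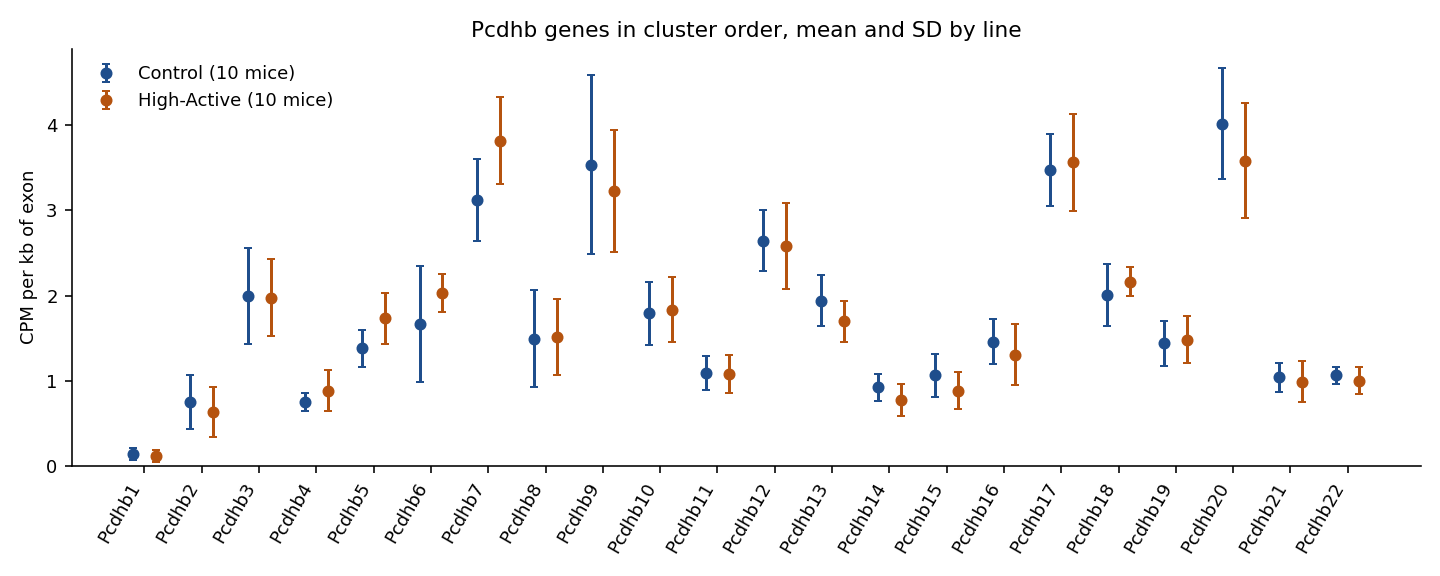
Level of each Pcdhb gene in CPM per kb of exon, in cluster order, as mean and SD over the 10 mice of each line. Pcdhb7, Pcdhb9, Pcdhb17 and Pcdhb20 stand highest, and Pcdhb1 averaged 0.126 CPM per kb.

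Single Pcdhb genes varied more between mice than their sum. The biological coefficient of variation of the 21 tested genes, the spread left after sampling noise, ranged from 13.6% for Pcdhb7 to 44.2% for Pcdhb2, with a median of 21.3%, against a median of 11.1% over all genes tested. It was 7.54% for the Pcdha row and 6.99% for the Pcdhg row. Genes with few reads have a higher coefficient in general, and 6 of the 23 tested members lay above the trend of all genes at their level, beside 21.9% of all genes. Pcdhb6 showed a 4.48-fold range over the mice, from 2.20 CPM in Control mouse 477 to 9.84 in Control mouse 409. Pcdhb2 showed a 4.65-fold range, and its 5 lowest mice (457, 469, 871, 883 and 905) were also the 5 lowest for its neighbor Pcdhb3. No other Pcdhb gene had more than 3 of them among its 5 lowest. Pcdhb4, next to Pcdhb3, had 0 of them there and 2 among its 5 highest.

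Levels of single Pcdhb genes were on average closer together in mice with the same parents than in mice with other parents. Mice with the same parents formed 8 pairs, from 6 families, and 7 of these pairs differed in treatment. The mean absolute difference in log2 CPM within these pairs was compared with that of the 82 pairs of mice of the same line with other parents. The ratio of the 2 was below 1 for 21 of 21 tested Pcdhb genes, with a median of 0.652, whereas over all genes tested it was below 1 for 51.4% with a median of 0.990. It was 0.369 for Pcdhb15, 0.436 for Pcdhb6, 0.452 for Pcdhb20 and 0.499 for Pcdhb5, and it was nearest to 1 for Pcdhb10, at 0.960. For the Pcdha row it was 1.04 and for the Pcdhg row 0.789. Over all genes, 12.2% had a ratio at or below the Pcdhb median. The largest family, with 3 mice, gave 3 of the 8 pairs, and without it the ratio was below 1 for 17 of 21 Pcdhb genes with a median of 0.745. With each pair of parents weighted equally it was below 1 for 17 of 21, with a median of 0.704. Within Control mice alone it was below 1 for 17 of 21 with a median of 0.558, beside 0.842 over all genes, and within High-Active mice alone for 19 of 21 with a median of 0.662, beside 1.03. The values are a description without a test, since the genes are linked and not independent of each other, and the comparison was added after the values were seen.

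The family of 3 High-Active mice shows the pattern for Pcdhb15, the gene with the lowest ratio. Mice 499, 871 and 872 had 1.88, 1.82 and 1.94 CPM. In the other High-Active families, siblings 197 and 905 had 2.06 and 2.08 CPM, siblings 415 and 886 had 2.44 and 2.77, and siblings 483 and 487 had 3.66 and 3.05. The ranges of these 4 High-Active families did not overlap for this gene, which was chosen for its low ratio. It had 64 to 169 reads per mouse. How many other genes had family ranges that did not overlap was not tallied. Control siblings 407 and 448 had 3.25 and 2.64 CPM, and Control siblings 409 and 411 had 3.02 and 3.90, which overlapped. For Pcdhb6, the High-Active siblings 197 and 905 had 7.89 and 8.32 CPM, and siblings 415 and 886 had 7.12 and 6.02. Siblings 483 and 487 had 8.93 and 7.46 CPM. Mice 499, 871 and 872 had 8.30, 7.91 and 7.03, a range that overlapped each of the other High-Active families. Control siblings 407 and 448 had 9.61 and 7.59 CPM, and 409 and 411 had 9.84 and 7.35, which overlapped. The lowest Pcdhb6 values were those of Control mice 477 and 454, at 2.20 and 3.32 CPM, which had no sibling in the experiment. The other Control mice without a sibling, 883, 469, 457 and 369, had 4.51, 5.00, 5.60 and 7.56 CPM. Mice without a sibling entered only the pairs with other parents.

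**Figure D3:**
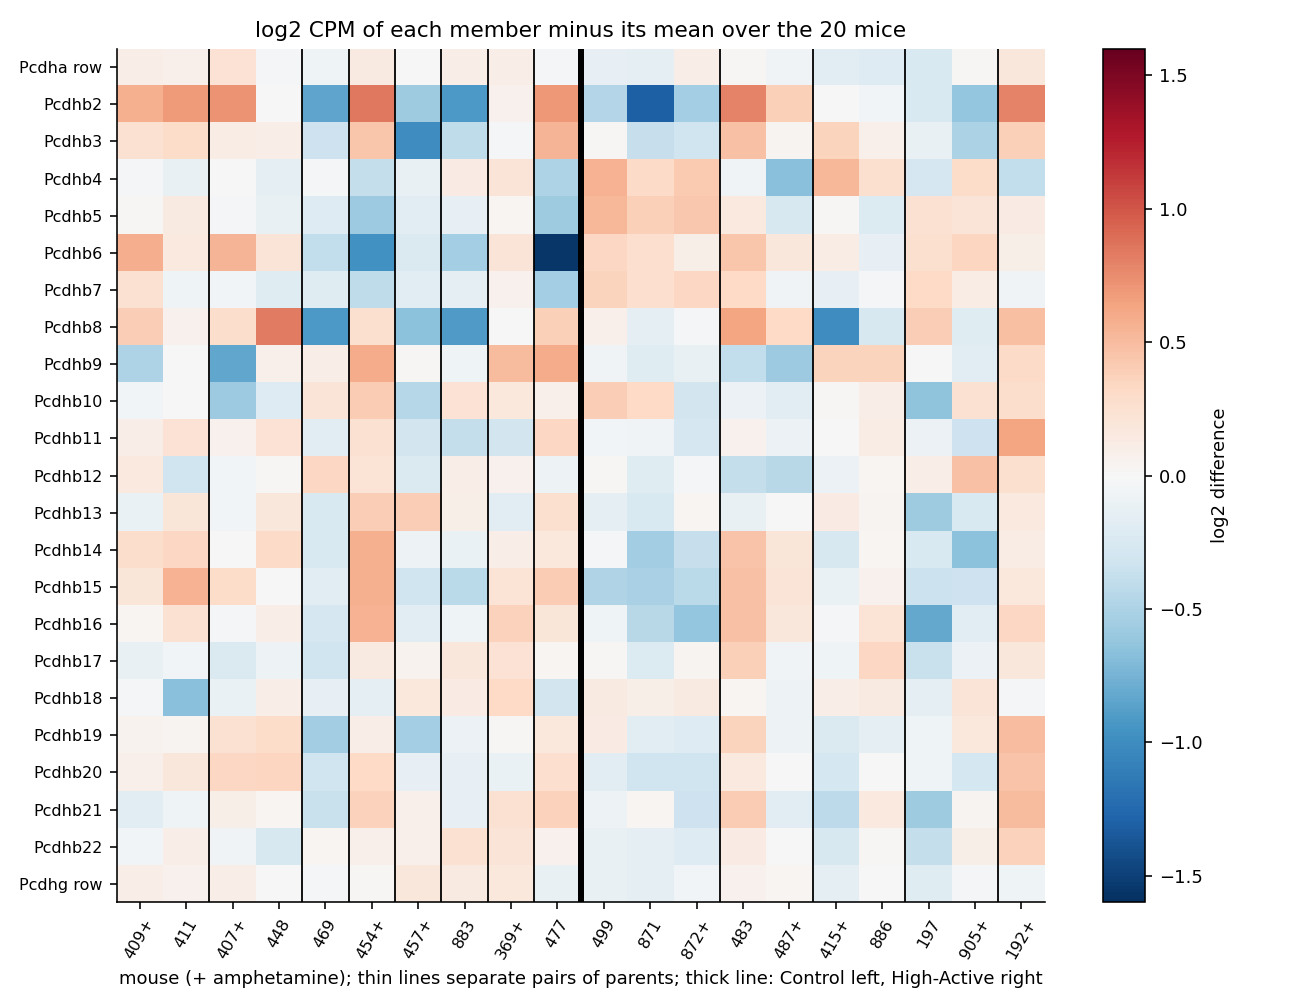
log2 CPM of each tested member minus its mean over the 20 mice (color, blue lower and red higher), with mice ordered by line and parents. Thin lines separate pairs of parents, the thick line separates Control from High-Active mice, and a plus marks amphetamine. The 21 Pcdhb genes differed less within families than between them, with a median ratio of 0.652.

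The comparison of the lines asked which members differed after selection for home cage activity. At the threshold, 4 of the 23 tested members (17.4%) differed between the lines, beside 14.5% of all genes tested, so the share of members called was close to that of all genes. Pcdhb5 and Pcdhb7 were higher in High-Active mice, and the Pcdha row and Pcdhg row were lower. The 2 members called lower stood beside 6.9% of all genes called lower, and the 2 called higher beside 7.63%. Among the 21 tested Pcdhb genes, 9 had a positive and 12 a negative log2 difference, with a median of -0.02, and over all genes the median was -0.00093. The median absolute log2 difference was 0.13 for Pcdhb genes and 0.08 for all genes. For no member did the 10 mice of one line lie wholly above or below the other 10, a separation seen in 0.264% of all genes. Without mouse 192, 4 members were called, and the share of all genes in that fit is not given here.

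Pcdhb7, a beta protocadherin from the middle of a run of genes with positive estimates, had the smallest p. Control saline mice had 8.23, 10.4, 10.5, 10.7 and 11.4 CPM, and Control amphetamine mice 9.05, 10.7, 11.6, 12.6 and 14.2. High-Active saline mice had 11.8, 14.5, 14.9, 15.0 and 15.4 CPM, and High-Active amphetamine mice 11.0, 11.5, 11.6, 13.1 and 15.1. All 10 High-Active mice were above the Control median of 10.7 CPM, 5 of them were above every Control mouse, and 6 Control mice were below every High-Active mouse. Pcdhb7 averaged 10.9 ± 1.7 CPM in Control and 13.4 ± 1.8 in High-Active mice (SD, n = 10 each), a log2 difference of 0.29 ± 0.08 (SE, edgeR adjusted p = 0.042). It passed the threshold with each of the 20 mice left out in turn. The fit counted siblings as independent mice, so its p-value may be too small where siblings are alike. For Pcdhb7 the ratio of same-parent to other-parent differences was 0.665, and siblings 499, 871 and 872 had 15.4, 14.5 and 15.1 CPM. No fit left out a whole family.

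For Pcdhb5, Control saline mice had 3.62, 4.68, 4.89, 4.95 and 5.93 CPM, and Control amphetamine mice 3.60, 4.77, 5.28, 5.46 and 5.48. High-Active saline mice had 4.63, 6.02, 6.36, 7.00 and 7.80 CPM, and High-Active amphetamine mice 4.49, 5.45, 5.93, 6.22 and 7.28. The lines overlapped, and 6 High-Active mice exceeded the highest Control value. The log2 difference was 0.33 ± 0.11 (SE, edgeR adjusted p = 0.077). The call was lost in 12 of the 20 fits that each left out 1 mouse, with adjusted p-values of at most 0.14 in all settings. For this gene too, the fit counted siblings as independent mice, and the ratio of same-parent to other-parent differences was 0.499.

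Pcdhb6 lies between these genes. Control saline mice had 2.20, 4.51, 5.00, 7.35 and 7.59 CPM, and Control amphetamine mice 3.32, 5.60, 7.56, 9.61 and 9.84. High-Active saline mice had 6.01, 7.89, 7.91, 8.30 and 8.93 CPM, and High-Active amphetamine mice 7.02, 7.03, 7.12, 7.46 and 8.32. All 10 High-Active mice lay within the range of Control mice, 9 of them above the Control median. The Control mice spread over 2.20 to 9.84 CPM, and the log2 difference of 0.30 ± 0.20 (SE) did not pass the threshold (edgeR adjusted p = 0.35). Together, Pcdhb5, Pcdhb6 and Pcdhb7 held 14.1% ± 3.1 of the Pcdhb reads in Control and 17.4% ± 2.8 in High-Active mice (SD, n = 10 each), a run of genes chosen after its values were seen.

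**Figure D4:**
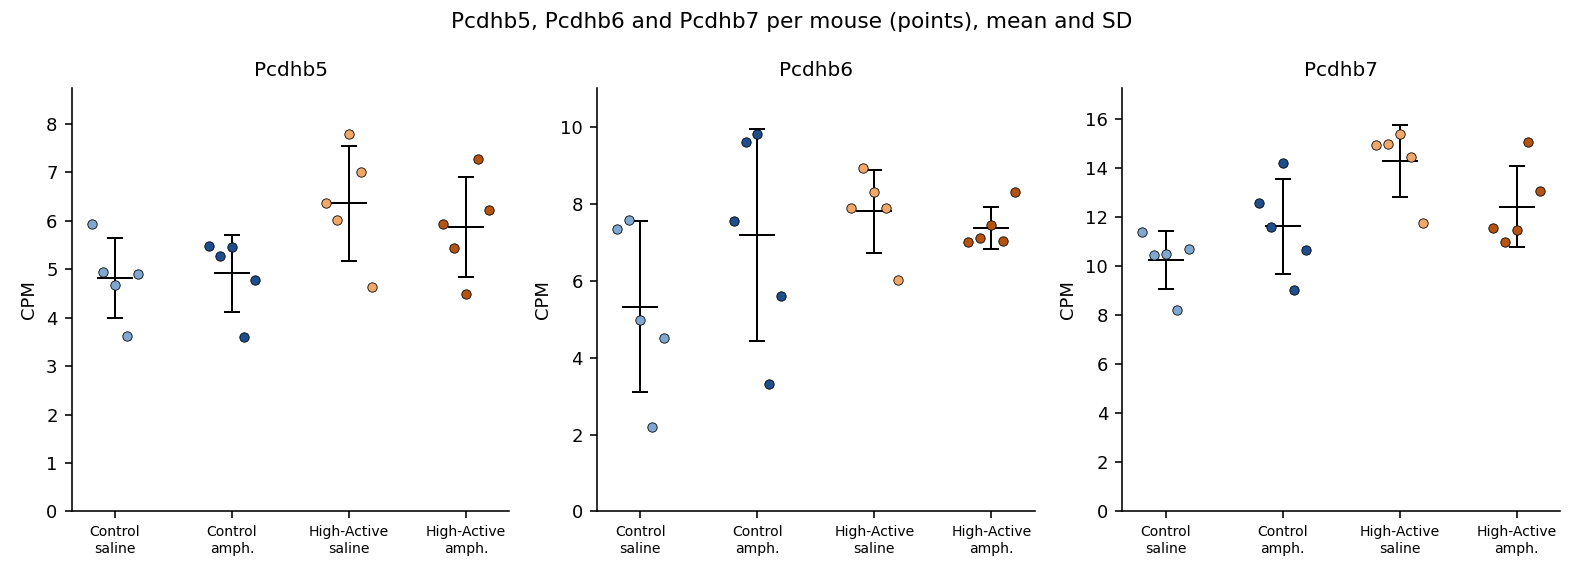
CPM of Pcdhb5, Pcdhb6 and Pcdhb7 in each mouse (points), by group, with the group mean and SD (n = 5 mice). In Pcdhb7 all 5 High-Active saline mice sit above every Control saline mouse, and 4 of them lie between 14.5 and 15.4 CPM. In Pcdhb6 Control mice spread from 2.20 to 9.84 CPM.

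The other Pcdhb genes did not pass the threshold between the lines. Pcdhb13 came nearest. It averaged 7.20 ± 1.1 CPM in Control and 6.29 ± 0.90 in High-Active mice (SD, n = 10 each), with a log2 difference of -0.20 ± 0.10 (SE, edgeR adjusted p = 0.20). Along the cluster, every estimate from Pcdhb4 to Pcdhb8 was positive and every estimate from Pcdhb11 to Pcdhb16 was negative, between -0.01 and -0.27. These runs were marked off after the values were seen, and signs were mixed in the rest of the cluster. Most single estimates in the runs were within 2 standard errors of 0, such as 0.02 ± 0.23 for Pcdhb8 and -0.01 ± 0.12 for Pcdhb11 (SE). Of the genes that took most reads, Pcdhb17 had a log2 difference of 0.04 ± 0.09 and Pcdhb20 one of -0.16 ± 0.11 (SE, edgeR adjusted p = 0.83 and 0.37).

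In the Pcdha row, the log2 difference between the lines was -0.13 ± 0.05 (SE, edgeR adjusted p = 0.083), and in the Pcdhg row it was -0.13 ± 0.04 (adjusted p = 0.059). In the same contrast 5 of the 12 cortical markers were called lower in High-Active mice, beside 6.9% of all genes. Of their estimates 11 of 12 were negative, with a median log2 difference of -0.59. With the cortical marker score as a covariate, neither row passed. The Pcdha row then had a log2 difference of -0.06 ± 0.05 (edgeR adjusted p = 0.62) and the Pcdhg row one of -0.09 ± 0.05 (adjusted p = 0.44). In the same fit Pcdhb7 had 0.37 ± 0.10 (adjusted p = 0.072) and Pcdhb5 0.42 ± 0.13 (adjusted p = 0.14), so 1 of 23 members was called, beside 399 of all genes. Leaving out 1 mouse ended the call of the Pcdha row in 12 of 20 fits. That of the Pcdhg row was lost without Control saline mouse 883, High-Active amphetamine mouse 415 or High-Active saline mouse 871. Markers of other cells also moved with the line. All 8 oligodendrocyte markers had positive estimates. Mobp and Mbp, both of myelin, were called higher in High-Active mice, beside 7.63% of all genes. Their log2 differences were 0.33 ± 0.08 and 0.26 ± 0.09 (SE, edgeR adjusted p = 0.021 and 0.089). None of the 8 was at 0 in every mouse, and the summed level of the 8 was 3955 to 6681 CPM in Control and 5499 to 7293 in High-Active mice. Of 6 astrocyte markers, Aldh1l1 and Gja1 were higher and Slc1a2 was lower, beside 7.63% and 6.9% of all genes. Their log2 differences were 0.32, 0.19 and -0.12 (edgeR adjusted p = 0.012, 0.035 and 0.099). The summed level of the 6 was 3590 to 4294 CPM in Control and 3461 to 4013 in High-Active mice. The 7 choroid plexus markers had positive estimates with a median of 0.83 and summed levels of 22.0 to 744.2 and 32.8 to 913.6 CPM, and 9 of the 10 striatal markers had negative ones with a median of -0.13, but no gene of these lists was called. The part of these markers in the differences of the members was not tested.

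**Figure D5:**
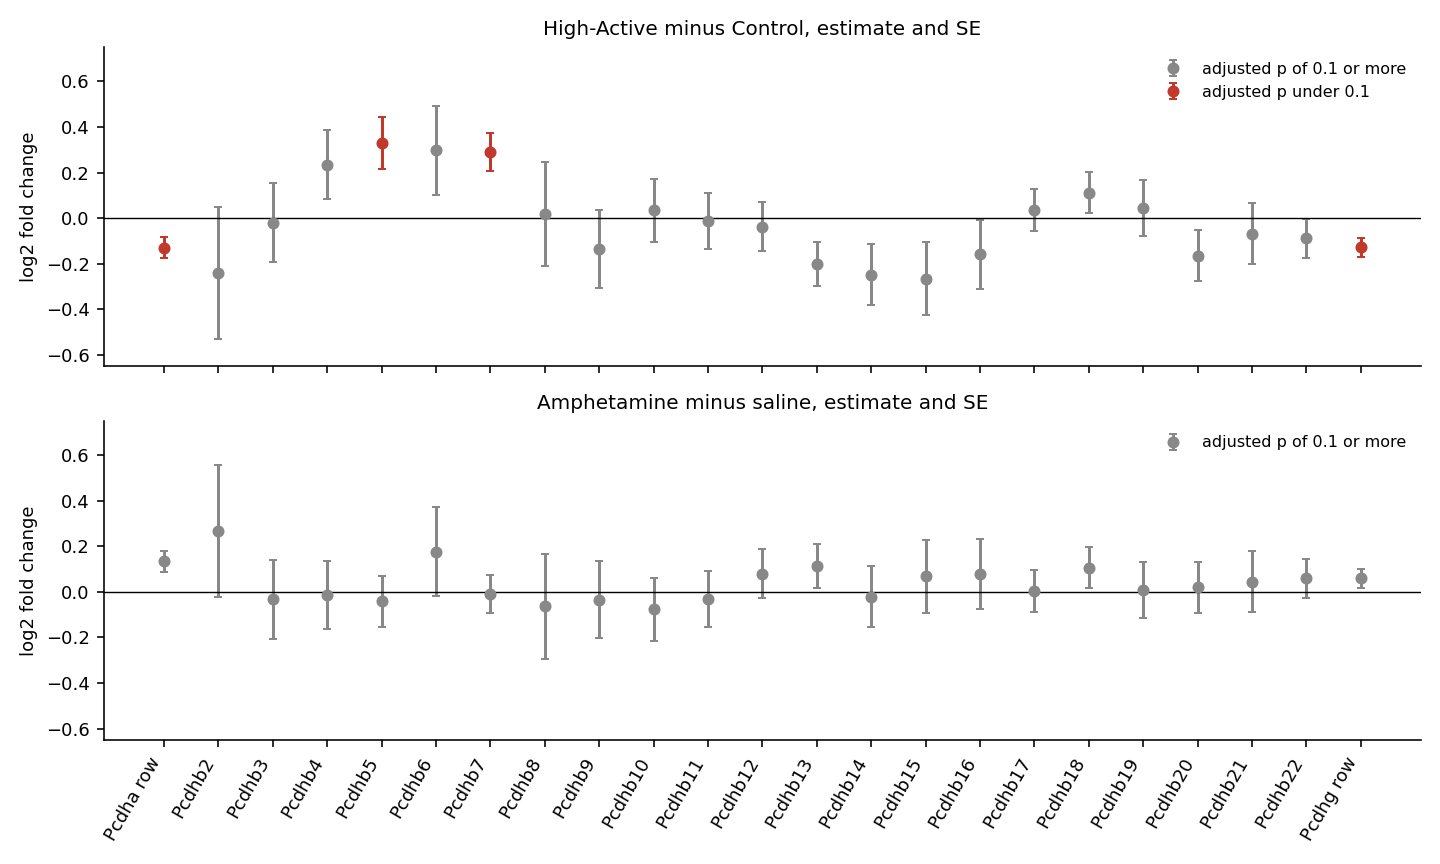
log2 fold change of each tested member in cluster order, with its SE, for High-Active minus Control (top) and amphetamine minus saline (bottom). Red points passed the edgeR threshold of 0.1. In the comparison of the lines 4 of 23 members passed, beside 14.5% of all genes, and in that of the treatments none of 23, beside 0%.

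Saline mice and amphetamine mice were also compared separately. In saline mice 1 of 23 members, Pcdhb7, differed between the lines, beside 3.74% of all genes. Its log2 difference was 0.48 ± 0.12 (SE, edgeR adjusted p = 0.048). The 5 High-Active saline mice came from 4 families. Full siblings 499 and 871, at 15.4 and 14.5 CPM, were counted as independent mice, so this p-value may be too small. Without Control saline mouse 883, or High-Active saline mouse 499 or 871, or with the cortical covariate, 0 members were called. The fit with the covariate called 0.338% of all genes. In amphetamine mice the log2 difference of Pcdhb7 was 0.10 ± 0.12 (SE, edgeR adjusted p = 0.75), and 0 of 23 members were called, beside 1.3% of all genes. At an unadjusted p under 0.05 there was 1 member in amphetamine mice, beside 12.6% of all genes. This was the Pcdhg row, which had a log2 difference of -0.17 ± 0.06 (SE, edgeR adjusted p = 0.23). DESeq2 also called 0 members there, beside 3.12% of all genes. The difference between the saline and the amphetamine estimate of Pcdhb7 was itself not called (interaction -0.38 ± 0.17, unadjusted p = 0.034, edgeR adjusted p = 1).

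Amphetamine changed no member past the threshold. By edgeR, 0 of 23 members were called, beside 0% of all genes, and DESeq2 likewise called 0 members, beside 2.64% of all genes. At an unadjusted p under 0.05 there was 1 member, the Pcdha row, beside 12.5% of all genes. Its log2 difference between amphetamine and saline was 0.13 ± 0.05 (SE, edgeR adjusted p = 0.24). Within Control mice the estimate was 0.11 ± 0.06 and within High-Active mice 0.16 ± 0.06 (edgeR adjusted p = 0.80 and 0.49). The cortical marker list had a median log2 difference of 0.81 between amphetamine and saline mice, with 11 of 12 estimates positive. They ran from -0.03 ± 0.10 for Rorb to 1.14 ± 0.35 for Neurod6 (SE, edgeR unadjusted p = 0.78 and 0.0045). Of the 12 genes 0 were called, and with the cortical covariate 0 members were called. Both counts stood beside 0% of all genes, so neither could have been higher. The part of the cortical markers in the Pcdha row was not tested. Among the alternatives run, a member was called only without High-Active amphetamine mouse 415, and it was the Pcdha row. The share of all genes called in that fit is not given here, so this call cannot be set beside it. In the 13 mice with a sibling in the experiment, each of the 6 families held both treatments, and an edgeR fit with the parents as a block, added after the values were seen, again called 0 of 23 members, beside 0.00676% of all genes. The Pcdha row then had a log2 difference of 0.13 ± 0.06 (SE, edgeR adjusted p = 0.98). In that fit 1 member, Pcdhb9, had an unadjusted p under 0.05, beside 4.23% of all genes. Its log2 difference was -0.39 ± 0.08 (SE, edgeR unadjusted p = 0.0016, adjusted p = 0.98). The estimate was -0.70 ± 0.14 within the 2 Control families and -0.08 ± 0.09 within the 4 High-Active families (SE). Over all 20 mice the log2 difference of Pcdhb9 was -0.03 ± 0.17 (SE). The 21 Pcdhb genes had a median log2 difference of 0.0088, between -0.08 for Pcdhb10 and 0.27 for Pcdhb2. Pcdhb18, the Pcdhb gene with the smallest p, averaged 10.5 CPM over the 20 mice and had a log2 difference of 0.11 ± 0.09 (SE, edgeR adjusted p = 0.68).

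The responses of the lines to amphetamine did not differ past the threshold for any member. By edgeR, 0 of 23 interactions were called, beside 0% of all genes, and DESeq2 called 0 as well, likewise beside 0%. At an unadjusted p under 0.05 there was 1 member, Pcdhb7, beside 2.97% of all genes. Its log2 difference between amphetamine and saline was 0.18 ± 0.12 in Control and -0.20 ± 0.12 in High-Active mice (SE), and neither was called (edgeR adjusted p = 0.82 and 0.69). Pcdhb6 had the largest interaction in size, -0.51 ± 0.39 (SE, edgeR adjusted p = 1), with estimates of 0.43 ± 0.28 in Control and -0.08 ± 0.27 in High-Active mice. Among the siblings with the parents as a block, 0 of 23 interactions were called, beside 0.00676% of all genes, and 4 members (Pcdhb6, Pcdhb7, Pcdhb9 and Pcdhb13) had an unadjusted p under 0.05, beside 1.24% of all genes. These interactions were estimated from 2 Control and 4 High-Active families.

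Genes that act with the clustered protocadherins were followed in the same fit. Of 19 regulators of the clusters, 3 were higher in High-Active mice and 0 were lower, beside 7.63% of all genes called higher (edgeR). These were Rest, a repressor of neuronal genes, with a log2 difference of 0.34 ± 0.08 (SE, edgeR adjusted p = 0.015), the cohesin regulator Pds5b, with 0.18 ± 0.06 (adjusted p = 0.058), and the cohesin subunit Smc3, with 0.08 ± 0.03 (adjusted p = 0.066). The median over the 19 was 0.0077. Of 20 signaling partners of the cytoplasmic domains, 4 were lower and 1 was higher, beside 6.9% of all genes called lower and 7.63% called higher. The lower genes were Cyfip2, Abi1 and Abi2, parts of the WAVE complex that drives actin branching, with log2 differences of -0.19 ± 0.05, -0.14 ± 0.04 and -0.15 ± 0.04 (SE), and the kinase Ptk2b, with -0.26 ± 0.07 (edgeR adjusted p = 0.039 for Cyfip2 and Ptk2b, 0.051 for Abi1 and 0.046 for Abi2). The kinase Fyn was higher by 0.09 ± 0.03 (adjusted p = 0.067). Of 12 non-clustered protocadherins, 11 were tested and 1, Pcdh8, was higher, beside 7.63% of all genes. Its log2 difference was 0.27 ± 0.10 (SE, edgeR adjusted p = 0.092). For amphetamine and for the interaction edgeR called 0% of all genes, so none of these 3 lists could have had a called gene. The part of the cortical marker level in these differences was not tested.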

How the data were processed

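Striatal RNA from 20 mice was sequenced as stranded 100 bp paired-end libraries. Per the labels and the methods, the authors aligned reads to GRCm38 with TopHat2 2.0.10 and Bowtie2 2.1.0 with gene counts from HTSeq 0.6.1 on the Ensembl annotation. The deposited values are raw read counts per gene, 1 table per mouse. The counting mode for strand and overlaps is not given in the sources used here. Symbols, lengths and positions came from GENCODE M21 (GRCm38), not the annotation of the counts.

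Rows that name no gene were removed. They held 8.17% to 9.55% of tallied reads (no feature), 1.39% to 1.66% (ambiguous) and 5.70% to 7.01% (not unique). Genes above 1 CPM in at least 3 mice were normalized by TMM and fitted with edgeR 4.0.16 (R 4.3.3, glmQLFit and glmQLFTest) as 4 group means. The log2 CPM values used a prior count of 2. DESeq2 1.42.0 and limma 3.58.1 gave alternatives, and the fit was tested on simulated data. All 40 within-group pairs of mice differed beyond sampling noise (chi-square per degree of freedom of at least 18.4).

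Named members were the highest members of each cluster, those past the threshold, and the 3 with the smallest p per effect. The members and gene lists were chosen with earlier results of these data known, and the comparison of siblings was added after seeing the values.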

Additional observations from a re-analysis of the deposited data

Results flagged for a closer look

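In groups of 5 mice, a value was marked when its gap to the nearest other mouse exceeded 0.71 of the group's range (Dixon's 95% critical value). Of 96 groups of values (23 members and the Pcdhb sum, 4 groups each), 4 were marked, and chance marks about 1 in 20 groups. High-Active saline mouse 886 had the lowest Pcdhb7 value of its group, 11.8 CPM, where the other 4 mice had 14.5 to 15.4. Its full sibling, mouse 415, had the lowest Pcdhb7 value of the High-Active amphetamine group, 11.0 CPM, against 11.5 to 15.1, and was not marked. Control saline mouse 477 had the highest Pcdhb9 value, 15.2 CPM, against 9.54 to 10.7, and this mouse also had the lowest Pcdhb5, Pcdhb6 and Pcdhb7 values of its group. High-Active amphetamine mouse 192 had the highest Pcdhb11 value, 7.31 CPM, against 3.76 to 4.70. The same mouse had the highest Pcdhb sum, 185.6 CPM, against 146.4 to 151.4. It is the High-Active mouse without a sibling in the experiment and the one with 13 reads of Gm6180.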

How the results depend on the processing

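The count of 4 members called between the lines was 4 with RLE size factors (beside 14.5% of all genes) and with a filter of 5 mice (14.4%). It was also 4 with DESeq2 (19%), the likelihood-ratio test (15.3%) and limma-voom with the parents as a block (12.7%). The limma-voom fit used the same family correlation, 0.026, for every gene. The count fell to 1, Pcdhb7, with no low-count filter, where 26116 genes were tested and 7.25% were called. It fell to 1, again Pcdhb7, with the cortical marker score as a covariate, beside 2.7% of all genes. The cause of the second loss was not tested. Leaving out each mouse in turn gave 1 to 4 members, with 1 without mouse 415, 871 or 883 and 2 without 197, 454, 499 or 905. The shares of all genes in the fits without a mouse are not given here. In saline mice the count of 1 fell to 0 with the cortical covariate, beside 0.338% of all genes, and ranged from 0 to 1 over mice left out. The amphetamine count of 0 ranged from 0 to 1, and the interaction stayed at 0. The line difference of Pcdhb17, near 0, changed sign without High-Active saline mouse 483 (-0.0091) or 886 (-0.002), within a range of -0.0091 to 0.079. Adjusted p-values of Pcdhb7 ranged from 0.015 to 0.072. The ratio of line means for the Pcdhb sum was 0.996 to 1.03 over other scalings, sibling averaging and the sum without Pcdhb17. The median sibling ratio of Pcdhb genes was 0.704 with each pair of parents weighted equally, an alternative chosen after seeing the data, as were those of the count without overlap (0 in each). Replicate labels are animal numbers that no groups share, so mice could be paired through their parents alone. With the parents as a replicate block in the 13 mice with siblings, also chosen after seeing the data, 0 members were called for amphetamine, within either line, or for the interaction. Low counts left Pcdhb1 untested and Pcdhb2 with a standard error of 0.29 on its line difference.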
